A study of Mus musculus with 5 samples.

Results

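Glycolytic enzymes, glucose and lactate transporters and genes induced by low oxygen were described as 1 module in 5 clones, each grown from 1 sorted cell of the mouse osteocytic line Ocy454. Members were the rows whose platform gene symbol is on a list of 37 genes. Of the 37, 34 had such a row and are called measured here, of 23185 named genes in all. Gpi1, Gapdh and Eno1 had no such row and are not analysed here. A probe set whose ID carries the Entrez number of Gpi1 has no gene name and stayed out. Eno1b, a separate gene that the RefSeq table also lists under the synonym Eno1, was not counted as a member. Sost, the gene of the secreted Wnt inhibitor sclerostin, was the basis on which 5 of 37 clones had been picked, per the series' design text. The high-Sost group holds clones 12H and 15H, and the low-Sost group holds clones 4L, 9L and 24L. All 5 were grown in aMEM with serum, untreated, for 7 days at 37 °C, and the labels state no difference in genotype, agent or time between the groups. Ocy454 is known to carry a temperature-sensitive T antigen and a Dmp1-driven fluorescent reporter, which all clones would share. Each clone was measured once, on 1 Affymetrix array, so the p-values measure the spread between clones and a clone has no replicate of its own. The labels give no oxygen level, cell density or medium glucose.

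Glycolysis breaks glucose to pyruvate in the cytosol, and lactate dehydrogenase and the lactate transporters dispose of the pyruvate that does not enter mitochondria. When oxygen is short, the prolyl hydroxylases of the EGLN family stop marking the HIF alpha subunits for decay. The stabilised factor, paired with ARNT, binds hypoxia response elements with the core ACGTG or GCGTG and raises glycolytic genes, transporters and genes such as Vegfa, Car9 and Bnip3. Osteocytes lie enclosed in bone, and both HIF signalling and glycolysis are well known in cells of the osteoblast lineage.

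Values are log2 expression after RMA, which makes arrays comparable but not genes, so a gene's level is compared only between clones. The array medians over named genes lay between 4.13 and 4.16. Of the osteocyte markers, Dmp1 and Phex read between 5.75 and 7.45 in the high-Sost clones and between 2.08 and 3.17 in the low-Sost clones. Pdpn, another osteocyte marker, ran the other way, at 8.35 and 8.06 in clones 12H and 15H and 9.20, 8.97 and 9.20 in clones 4L, 9L and 24L, without overlap (difference -0.92, SE 0.13, limma adjusted p = 0.572). Mepe and Fgf23 read at most 3.29 in every clone, and Sost itself read between 3.78 and 4.08, with no call by limma (adjusted p = 0.737). The 4 adipocyte, 4 muscle and 4 endothelial markers measured read at most 4.79 in every clone, and Cd68 among the blood markers and Sox9 among the chondrocyte markers reached up to 6.97 and 7.95. The values carry no detection call, so a fold against a value at or under 4.79 is given as a lower bound (at least). Clone 4L stood apart in the osteoblast markers, with a mean over 6 genes of 5.81 against 8.65 to 10.35 in the other clones. It was lowest for 5 of the 6, by at least 4.14 for Sp7, Alpl and Ibsp but by 0.32 and 0.58 for Col1a1 and Col1a2. Bglap was lowest in 24L. In 4 of the 6 (Sp7, Alpl, Bglap and Ibsp) both high-Sost clones read above every low-Sost clone, against 8.26% of all named genes. Clone 4L was also alone lowest for 15 members, and the part of these markers in that was not tested.

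The module varied between clones more widely than most genes, and clone 9L, a low-Sost clone, carried its highest values. Over the 5 clones, 19 of the 34 members ranged over at least 1 log2 unit (2-fold), against 11.7% of all named genes, and 7 over at least 2 units, against 2.98%. The median deviation of the members from their 5-clone mean was 0.42 in clone 9L and 0.13 in 24L, and -0.09 in 12H, -0.12 in 15H and -0.15 in 4L. Over all named genes the same median was 0 in each clone. Clone 9L alone was highest for 18 of the 34 members, where it was highest for 15.7% of all named genes and for 20% of the 7807 genes with a mean of 6 or more. It stood at least 0.5 above every other clone for 11 members, against 1.23% of all named genes, and at least 2-fold above for 4 (Slc16a3, Aldoc, Bnip3 and Car9), against 0.237%. Clone 4L alone was lowest for 15 members, against 19.2% of all genes, and 9 members had 9L highest with 4L lowest, against 4.36%. Among the 23 members with a mean of 6 or more, 9L was highest for 12 and stood 0.5 above every other clone for 7, against 20% and 1.14% of all genes at that level. The count for 4L did not stand out at that level, with 6 of the 23 lowest in 4L, against 24.7%. Clone 12H was lowest for 9 of the 23, against 22.6%, and 15H for 4, against 13.2%. At that level 4 of the 23 (Slc2a3, Ldha, Pdk1 and Bnip3) had both extremes, against 6.83%. At least 2-fold under every other clone, 4L held 1 member, Slc2a3, against 0.858%. Among the 19 members with a range of 1 or more, 9L was highest for 12 and 4L lowest for 9, against 17.8% and 32.5% of all genes with such a range. Clone 12H was lowest for 8 of these 19, against 31.6%. Clone 24L was alone highest for 10 members (16% of all named genes), 4L for 4 (20.1%), 12H for 1 (21.9%) and 15H for 1 (13.6%). Clone 12H was alone lowest for 10 (18.2%), 15H for 4 (13.4%), 24L for 4 (17%) and 9L for 1 (17.5%). The largest chromosome-wide shift in clone 9L was -0.19, on chromosome 8, and with such shifts subtracted from every gene the members' median deviation in 9L was 0.40.

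**Figure D1:**
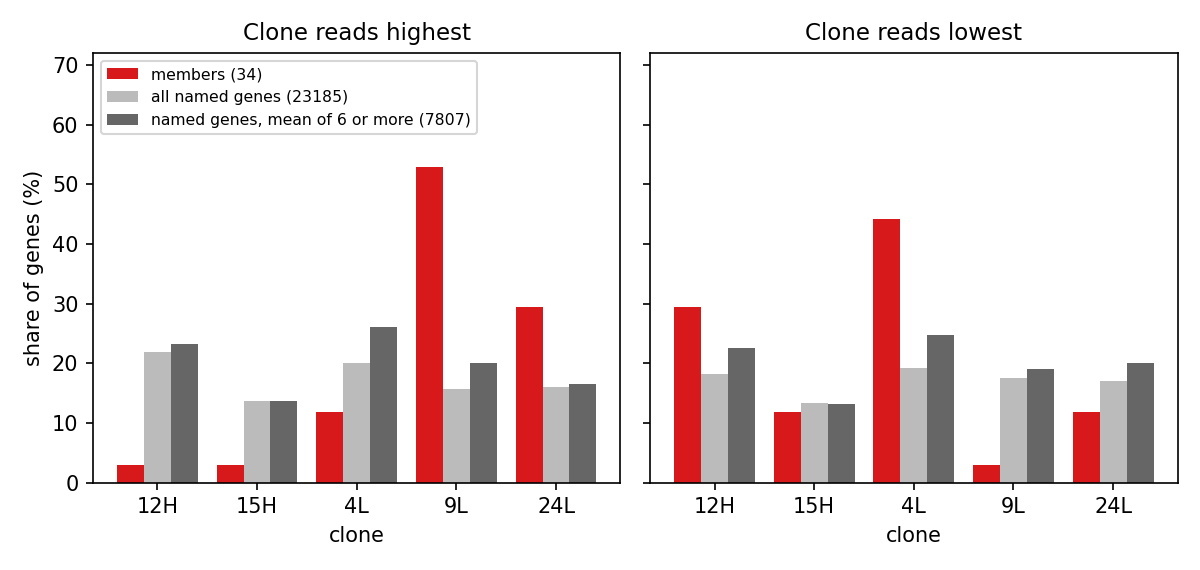
Share of genes (%) for which each clone, on the x axis, reads alone highest (left) or alone lowest (right), for the 34 members (red), all 23185 named genes (light grey) and the 7807 named genes with a mean of 6 or more (dark grey). Clone 9L is highest for 52.9% of members against 15.7% of all named genes, and clone 4L is lowest for 44.1% against 19.2%. Among the 23 members with a mean of 6 or more, not drawn apart, 4L is lowest for 6 and 12H for 9. The shares of all genes at that level are 24.7% and 22.6%.

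Between the Sost groups, no member passed limma's test over all named genes (0 higher and 0 lower, as for 0% of all genes at an adjusted p under 0.05, smallest adjusted p of a member 0.687, for Ldhb). At an unadjusted p under 0.05, 5 members were lower in the high-Sost clones and 1 was higher, where 2.71% of all named genes were lower and 3.07% higher. By sign alone, 24 members were lower and 10 higher, against 45.6% and 48.9% of all named genes. Differences of 0.5 or more were found in 13 members lower (4.5%) and 3 higher (3.92%). The median difference over the 34 members, as high-Sost minus low-Sost clones, was -0.31, against 0 over all named genes. It was -0.08 without clone 9L, -0.14 without clone 15H and -0.36 without clone 4L. In 8 members every high-Sost clone read under every low-Sost clone, against 7.75% of all named genes and 13.5% of those with a mean of 6 or more. These 8 were Slc2a1, Pfkp, Pfkl, Eno2, Ldhb, Egln3, Ero1a and Ddit4, of which Pfkp and Egln3 were also 2-fold lower, against 0.983% of all named genes. The reverse held for 1 member, Ankrd37, against 8.26%, and for 0 at 2-fold, against 0.867%. The 3 low-Sost clones did not read alike. Clone 9L lay above both high-Sost clones in 27 members (25.5% of all named genes) and 24L in 23 (26.1%), while 4L lay above both in 11 (28.3%) and below both in 16 (28%). Clone 9L lay below both in 3 (27.3%) and 24L in 8 (28.1%). Without clone 4L, 18 members were lower in the high-Sost clones with no overlap, against 11.1% of all named genes in the same 4 clones.

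**Figure D2:**
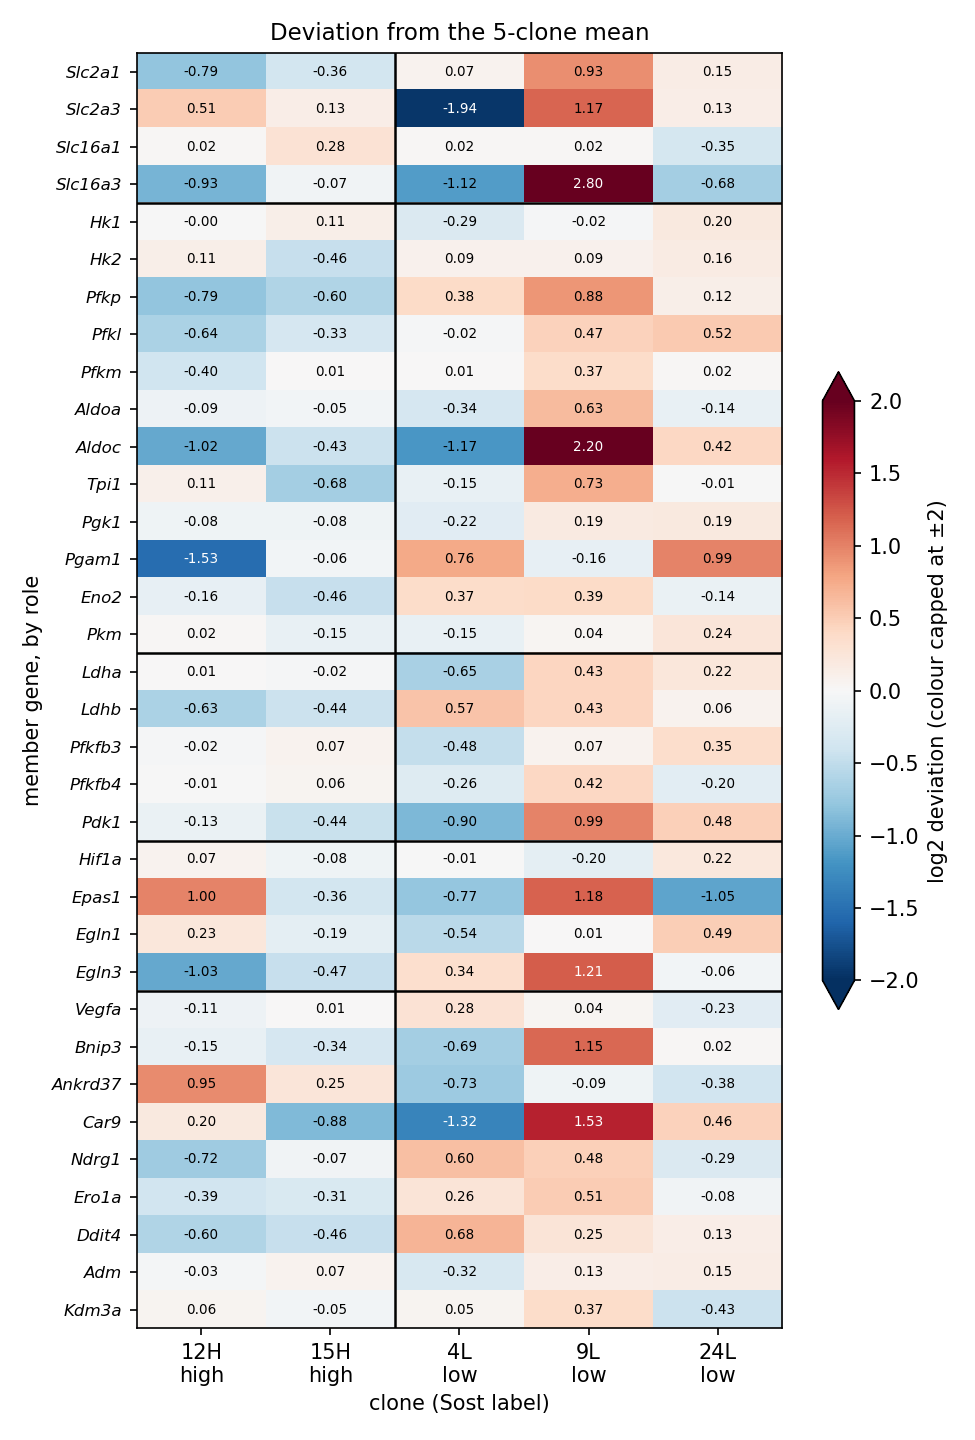
Deviation of each of the 34 members (rows, by role: transporters, glycolytic enzymes, lactate dehydrogenase and flux switches, HIF alpha subunits and hydroxylases, other hypoxia-induced genes) from its mean over the 5 clones (columns), in log2 units, with colour capped at 2 in either direction. Most of the strong positive cells lie in clone 9L, up to 2.80 for Slc16a3, while Pgam1, Ndrg1, Ddit4 and Ldhb have their highest values in 4L or 24L.

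Promoters of 6 members are shown for the hypoxia response element core. Windows are the 250 bases before the RefSeq start (build GRCm38.p6), printed 5′ to 3′ on the gene's strand, with ACGTG or GCGTG on either strand in capitals (CACGT and CACGC where the core lies on the other strand). Shown are the 4 genes that clone 9L carried at least 2-fold above the next clone, and Egln3 and Pfkp, the widest differences among the members lower in high-Sost clones with no overlap. The windows lie at chr11:120948817-120949066 (+ strand) for Slc16a3, chr11:78322823-78323072 (+ strand) for Aldoc, chr7:138909507-138909756 (- strand) for Bnip3, chr4:43506776-43507025 (+ strand) for Car9, chr12:54203875-54204124 (- strand) for Egln3 and chr13:6648772-6649021 (- strand) for Pfkp. For Aldoc the first of its 2 windows is shown.
Slc16a3: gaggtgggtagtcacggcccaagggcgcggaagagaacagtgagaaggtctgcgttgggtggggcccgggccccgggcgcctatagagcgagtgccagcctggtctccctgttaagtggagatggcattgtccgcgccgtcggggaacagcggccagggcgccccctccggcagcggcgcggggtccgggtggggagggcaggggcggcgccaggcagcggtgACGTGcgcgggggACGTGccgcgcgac
Aldoc: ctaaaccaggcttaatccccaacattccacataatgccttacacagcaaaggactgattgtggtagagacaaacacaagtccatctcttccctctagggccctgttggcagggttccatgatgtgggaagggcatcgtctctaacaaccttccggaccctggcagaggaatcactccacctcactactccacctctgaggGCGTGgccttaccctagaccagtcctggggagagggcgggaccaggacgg
Bnip3: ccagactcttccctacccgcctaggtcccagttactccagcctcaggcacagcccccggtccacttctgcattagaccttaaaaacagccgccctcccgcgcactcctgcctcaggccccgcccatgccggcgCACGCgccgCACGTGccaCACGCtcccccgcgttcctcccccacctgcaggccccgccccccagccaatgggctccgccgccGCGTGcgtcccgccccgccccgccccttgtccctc
Car9: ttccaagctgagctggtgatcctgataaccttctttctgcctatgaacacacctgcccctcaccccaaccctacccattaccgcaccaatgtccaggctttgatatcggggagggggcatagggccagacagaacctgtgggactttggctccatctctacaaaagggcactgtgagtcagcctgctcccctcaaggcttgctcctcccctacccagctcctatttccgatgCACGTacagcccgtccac
Egln3: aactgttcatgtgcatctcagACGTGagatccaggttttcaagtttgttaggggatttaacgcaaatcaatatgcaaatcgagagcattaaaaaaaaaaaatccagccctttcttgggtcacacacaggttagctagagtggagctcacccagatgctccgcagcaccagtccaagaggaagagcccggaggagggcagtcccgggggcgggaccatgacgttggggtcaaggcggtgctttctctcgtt
Pfkp: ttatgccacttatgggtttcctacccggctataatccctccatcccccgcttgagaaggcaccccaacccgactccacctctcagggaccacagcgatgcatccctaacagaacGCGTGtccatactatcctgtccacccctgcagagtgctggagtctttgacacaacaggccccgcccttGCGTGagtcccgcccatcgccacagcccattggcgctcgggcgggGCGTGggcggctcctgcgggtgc

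Slc16a3 holds 2 ACGTG cores, 27 and 14 bases before the start, and Car9 holds 1 on the other strand, 18 bases before it. Bnip3 holds 5 matches, 2 of which share a CACGTG, the palindrome also known as an E-box, and Pfkp holds 3 GCGTG cores. Egln3 and the window of Aldoc hold 1 each. A core was found in at least 1 window of 29 of the 31 members with a promoter in the table (93.5%), against 41.5% of all 27025 genes in it and 65.4% of the 6283 genes in it with a mean of 6 or more here. ACGTG was found in 64.5% of these members, 18.5% of all genes and 27.3% of the genes with a mean of 6 or more. For GCGTG these shares were 67.7%, 30.9% and 53.5%. Counted by window, since some genes have several, the shares were 77.8% of 45 member windows and 38.6% of all 32851. Eno2 and Tpi1 hold no such letters in these windows. Slc2a3, Epas1 and Ndrg1 had no entry in the table. Of the members in it, 10 stood at least 0.5 above every other clone in 9L, and 90% of these held a core, against 95.2% of the other 21. For the 8 members lower in the high-Sost clones without overlap the share was 87.5%. A match describes letters and not binding, and the members were listed as glycolytic genes and HIF targets in the first place.

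Among the transporters, the glucose importer Slc2a1 and the lactate exporter Slc16a3 both peaked in clone 9L. Slc2a1, which encodes GLUT1, read 8.63 and 9.05 in clones 12H and 15H, against 9.49, 10.35 and 9.57 in clones 4L, 9L and 24L. Both high-Sost clones lay under all low-Sost clones, with means of 8.84 ± 0.30 (SD, n = 2) and 9.80 ± 0.47 (SD, n = 3). The difference of -0.96 (SE 0.35) was not called by limma (adjusted p = 0.737). Slc16a3 encodes MCT4, the low-affinity lactate exporter of glycolytic cells. It read 4.22 and 5.08 in clones 12H and 15H and 4.02, 7.94 and 4.47 in clones 4L, 9L and 24L. Clone 9L stood 7.28-fold above the next clone, the high-Sost clone 15H, and at least 15.1-fold above 4L. The group difference of -0.83 (SE 1.47) therefore rests on 9L and was 0.40 without it.

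The other lactate carrier and the other glucose carrier had different orders. Slc16a1, which encodes MCT1, read 8.57 in 12H, 4L and 9L, 8.84 in 15H and 8.20 in 24L, and its 95% interval for the group difference ran from -0.23 to 0.74. Slc2a3, which encodes the high-affinity carrier GLUT3, read 6.60 and 6.23 in clones 12H and 15H and 4.15, 7.27 and 6.23 in clones 4L, 9L and 24L. Its low value in 4L, at least 8.66-fold under 9L, set the group difference of 0.53 (SE 1.07), which was -0.33 without 4L and 1.23 without 9L.

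The 3 phosphofructokinase isozymes, which catalyse the committed step of glycolysis, all read lower on average in the high-Sost clones, to different degrees. Pfkp, the platelet type, read 6.92 and 7.10 in clones 12H and 15H, against 8.09, 8.59 and 7.83 in clones 4L, 9L and 24L. The groups did not overlap, and the difference was -1.16 (SE 0.27, 2.23-fold, limma adjusted p = 0.737). Pfkl, the liver type, read 7.10 and 7.40 in clones 12H and 15H and 7.71, 8.20 and 8.26 in clones 4L, 9L and 24L. Its difference was -0.81 (SE 0.23), again with no overlap, and 24L, not 9L, was highest. Pfkm, the muscle type, read 6.01 in 12H, 6.41 in 15H and 4L, 6.77 in 9L and 6.43 in 24L, so that 15H and 4L were level and the difference was -0.33 (SE 0.19). Pfkm lies on chromosome 15, where the median gene was shifted by -0.28 in 12H, 0.20 in 4L and 0.19 in 9L. With chromosome shifts subtracted the difference was -0.04 for Pfkm, -1.05 for Pfkp and -0.84 for Pfkl.

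Of the 12 glycolytic enzymes measured, 11 had a negative and 1, Hk1, a positive difference, against 45.6% and 48.9% of all named genes. None was called, and their median difference was -0.40. The median was -0.25 without 9L, -0.26 without 15H and -0.58 without 12H. The 3 without overlap were Pfkp, Pfkl and Eno2, where 7.75% of all named genes and 13.5% of those with a mean of 6 or more were lower without overlap. Eno2, an enolase best known from neurons and also induced by hypoxia, read 5.87 and 5.57 in clones 12H and 15H and 6.40, 6.42 and 5.90 in clones 4L, 9L and 24L. Clone 24L lay only 0.03 above 12H, within the SD of either group (0.21, n = 2, and 0.30, n = 3). Eno2 lies on chromosome 6, where the median gene was shifted by 0.28 in 12H, -0.06 in 15H and -0.10 in 24L. With chromosome shifts subtracted its difference, -0.52 before, was -0.66.

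Aldoc and Pgam1 had the widest spread among the enzymes and opposite outlying clones. Aldoc, an aldolase isozyme induced by HIF, read 4.13 and 4.72 in clones 12H and 15H and 3.97, 7.34 and 5.56 in clones 4L, 9L and 24L. Clone 9L stood 3.44-fold above 24L and at least 10.3-fold above 4L, and the groups overlapped through 4L. The difference of -1.20 (SE 1.15) was -0.35 without 9L and -2.03 without 4L. Pgam1, a phosphoglycerate mutase, read 5.64 and 7.11 in clones 12H and 15H and 7.92, 7.00 and 8.16 in clones 4L, 9L and 24L. It was low in 12H, 5.72-fold under 24L, and 9L lay under 15H, so the widest mean difference of all members, -1.32 (SE 0.64), came with overlapping groups. It was -0.59 without 12H, where it was no longer the widest, and -2.05 without 15H.

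The other enzymes differed less between clones. Tpi1, the triosephosphate isomerase, read 9.79 and 9.01 in clones 12H and 15H and 9.53, 10.42 and 9.68 in clones 4L, 9L and 24L, highest in 9L with the high-Sost clones on both sides of 4L. Aldoa, the main aldolase, read 5.80 in 9L and between 4.83 and 5.12 in the other 4 clones. Pkm, the pyruvate kinase of these cells, ranged over 0.39, Pgk1, the phosphoglycerate kinase, over 0.41 and Hk1, a hexokinase, over 0.49. The 95% interval of the group difference was -0.52 to 0.31 for Pkm, -0.59 to 0.32 for Pgk1 and -0.39 to 0.58 for Hk1. Hk2, the inducible hexokinase, read 6.28 in 15H and between 6.84 and 6.91 in the other 4 clones. Several glycolytic enzymes, Pgk1 and Aldoa among them, have near-identical processed copies in the mouse genome, and their values are uncertain to the extent that probes are shared.

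Among the genes of pyruvate handling, Ldha and Pdk1 were highest in 9L and lowest in 4L, and Ldhb was not. Ldha, the lactate dehydrogenase subunit of glycolytic cells, read 10.42 and 10.39 in clones 12H and 15H and 9.76, 10.84 and 10.62 in clones 4L, 9L and 24L. The high-Sost clones lay between the low-Sost clones, with a difference of -0.01 and a 95% interval from -1.10 to 1.09. Ldhb, the subunit of oxidative cells, read 4.01 and 4.20 in clones 12H and 15H, against 5.21, 5.06 and 4.70 in clones 4L, 9L and 24L. Its groups did not overlap (difference -0.89, SE 0.19, limma adjusted p = 0.687), with 4L and not 9L highest. Its values in 12H, 15H and 24L lay under 4.79, the highest reading of the adipocyte, muscle and endothelial markers. Pdk1, the kinase that shuts pyruvate dehydrogenase in hypoxia, read 7.74 and 7.43 in clones 12H and 15H and 6.97, 8.87 and 8.36 in clones 4L, 9L and 24L. Clones 9L and 24L lay above both high-Sost clones and 4L below them, and the difference of -0.48 (SE 0.67) was -0.08 without 9L and -1.02 without 4L.

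The bifunctional enzymes Pfkfb3 and Pfkfb4, which set the level of the allosteric activator of phosphofructokinase, differed little between groups (0.04 each, SE 0.29 and 0.25). Pfkfb3 read 5.16 and 5.25 in clones 12H and 15H and 4.70, 5.26 and 5.54 in clones 4L, 9L and 24L. Pfkfb4 read between 4.96 in 4L and 5.64 in 9L.

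Of the oxygen-sensing genes, Hif1a varied little and Epas1 and Egln3 varied widely. Hif1a, the main HIF alpha subunit, read between 8.57 in 9L and 8.99 in 24L, with a group difference of -0.01 and a 95% interval from -0.44 to 0.43, and 9L was its lowest clone. HIF-1 alpha is controlled mainly through protein decay, which an array does not read. Epas1, which encodes HIF-2 alpha, read 5.69 and 4.33 in clones 12H and 15H and 3.92, 5.87 and 3.63 in clones 4L, 9L and 24L. One clone of each group was high (12H and 9L), and the group difference of 0.53 (SE 0.94) was -0.15 without 12H and 1.23 without 9L. The values of Epas1 in 15H, 4L and 24L lay under 4.79, the highest reading of the adipocyte, muscle and endothelial markers.

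Egln3, a prolyl hydroxylase that is itself a HIF target, read 6.03 and 6.59 in clones 12H and 15H, against 7.40, 8.27 and 6.99 in clones 4L, 9L and 24L. Its groups did not overlap, with a difference of -1.24 (SE 0.48, limma adjusted p = 0.737), and 9L stood 0.87 above the next clone. Egln1, the main oxygen sensor of the family, read 8.02 and 7.60 in clones 12H and 15H and 7.25, 7.80 and 8.28 in clones 4L, 9L and 24L, a group difference of 0.03.

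**Figure D3:**
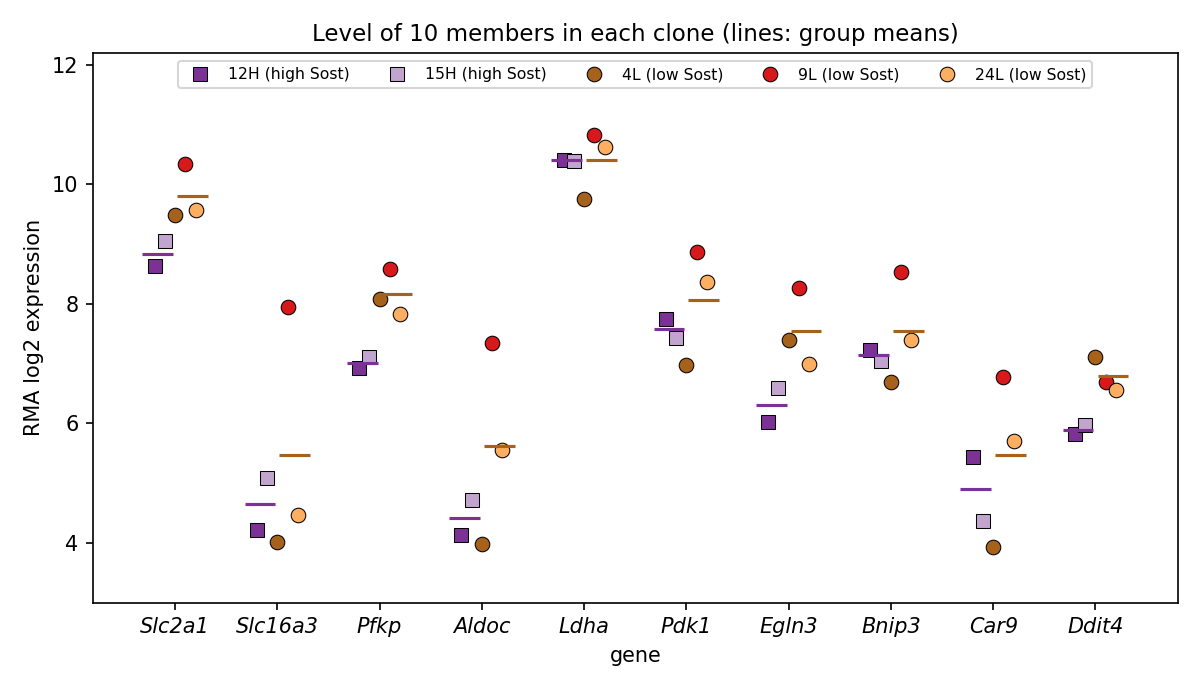
RMA log2 expression (y axis) of 10 members in the high-Sost clones 12H and 15H (squares) and the low-Sost clones 4L, 9L and 24L (circles), with lines at the group means. Clone 9L (red) is highest for all but Ddit4, while 4L (brown) lies under both high-Sost clones for Slc16a3, Aldoc, Ldha, Pdk1, Bnip3 and Car9 and above them for Slc2a1, Pfkp, Egln3 and Ddit4.

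Among the other hypoxia-induced genes, Bnip3 and Car9 had the same extremes, 9L highest and 4L lowest. Bnip3, a mitophagy receptor, read 7.23 and 7.04 in clones 12H and 15H and 6.70, 8.54 and 7.40 in clones 4L, 9L and 24L, and 9L stood 2.20-fold above the next clone. Car9, the tumour-type carbonic anhydrase, read 5.44 and 4.37 in clones 12H and 15H and 3.93, 6.78 and 5.71 in clones 4L, 9L and 24L. Its values in 15H and 4L lay under 4.79, the highest reading of the adipocyte, muscle and endothelial markers. The group differences of Bnip3 and Car9, -0.41 (SE 0.63) and -0.57 (SE 1.03), became 0.089 and 0.088 without 9L. The median difference over the 9 genes of this role, -0.41, likewise became 0.088 without 9L and was -0.14 without 15H.

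Ero1a, Ddit4 and Ndrg1 read high in 4L as well as in 9L. Ero1a, an oxidase of protein folding in the endoplasmic reticulum, read 8.96 and 9.03 in clones 12H and 15H, against 9.61, 9.86 and 9.27 in clones 4L, 9L and 24L (difference -0.58, SE 0.20). Ddit4, the REDD1 inhibitor of mTORC1, read 5.83 and 5.97 against 7.11, 6.68 and 6.56 in clones 4L, 9L and 24L (difference -0.89, SE 0.20, limma adjusted p = 0.734). Neither overlapped between the groups. Ndrg1, a stress-responsive gene, read 9.69 and 10.34 in clones 12H and 15H and 11.02, 10.89 and 10.12 in clones 4L, 9L and 24L, where 15H exceeded 24L. Its difference was -0.65 (SE 0.39). It also lies on chromosome 15, and its difference was -0.37 with chromosome shifts subtracted.

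Ankrd37, a small ankyrin-repeat gene known as a HIF target, was the 1 member with higher values in both high-Sost clones. It read 6.60 and 5.89 in clones 12H and 15H, against 4.92, 5.56 and 5.26 in clones 4L, 9L and 24L (difference 1.00, SE 0.32, limma adjusted p = 0.737). It lies on chromosome 8, where the median gene of clone 12H was shifted by 0.23 and that of 9L by -0.19, and its difference was 0.82 with such shifts subtracted. Vegfa, the angiogenic growth factor, ranged over 0.52, from 8.94 in 24L to 9.46 in 4L, with a 95% interval for the group difference from -0.59 to 0.44. Kdm3a, a histone demethylase, read between 7.18 in 24L and 7.98 in 9L, with a difference of 0.00 (SE 0.27). Adm, which encodes the peptide adrenomedullin, read between 2.42 and 2.88, among the lowest values of the module, where a lack of difference cannot be told from a lack of signal.

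**Figure D4:**
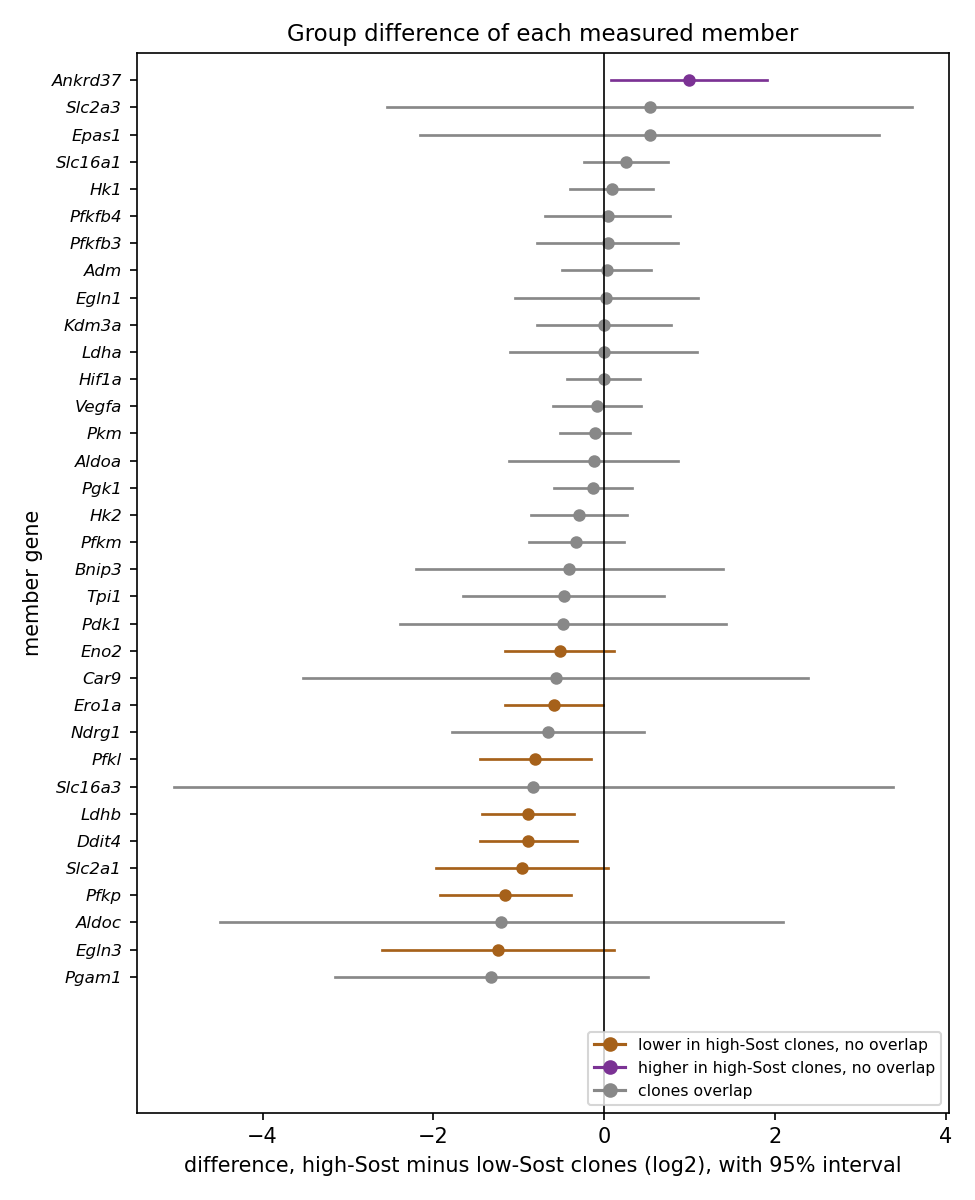
Difference of each of the 34 members as high-Sost minus low-Sost clones (x axis, log2, points) with its 95% interval from limma (lines), in order of size. Brown marks the 8 members lower in both high-Sost clones than in any low-Sost clone, purple the 1 that was higher and grey the 25 whose clones overlap; the intervals of 28 members include 0 and none passed after adjustment over all named genes.

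Other genes of the same pathways were taken from 6 lists of 67 measured genes, and 0 passed limma's test in either direction. At an unadjusted p under 0.05, 2 of 22 further hypoxia-induced genes were higher and 3 lower in the high-Sost clones, 2 of 11 other HIF pathway components were lower and 1 of 10 genes of pyruvate entry was lower. Of all named genes 3.07% were higher and 2.71% lower at that threshold, and 4.38% and 5.21% of those with a mean of 6 or more. Of the 22 hypoxia-induced genes, 11 were highest in clone 9L, 10 were lowest in 4L and 6 had both extremes, against 15.7%, 19.2% and 4.36% of all named genes. Rora, a nuclear receptor, read 7.13 in both high-Sost clones and 5.37, 7.94 and 6.96 in clones 4L, 9L and 24L. Loxl2, a lysyl oxidase-like enzyme of collagen cross-linking, read 5.13 and 5.18 in clones 12H and 15H, against 5.41, 7.55 and 6.98 in clones 4L, 9L and 24L. Hmox1, the haem oxygenase, ran the other way, with 9.14 and 8.96 in the high-Sost clones and 8.67, 8.34 and 8.47 in clones 4L, 9L and 24L (difference 0.55, SE 0.13). Ppp1r3c, a glycogen-targeting subunit of protein phosphatase 1, differed by 0.92 (SE 0.26), and Kdm4b, a histone demethylase, by -0.30 (SE 0.07).

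Outside the members, components that mark HIF for decay showed small differences. Of 11 such genes and HIF partners, Vhl, the substrate receptor of the ubiquitin ligase for HIF, differed by -0.40 (SE 0.13). Its partner Eloc differed by -0.46 (SE 0.11) and Rbx1, the ring subunit, by -0.48 (SE 0.23). In all 3 the high-Sost clones lay under every low-Sost clone, against 7.75% of all named genes and 13.5% of those with a mean of 6 or more. Rbx1 lies on chromosome 15, where the median gene was shifted by -0.28 in clone 12H, 0.20 in 4L and 0.19 in 9L. Hif1an, the asparaginyl hydroxylase of HIF, differed by 0.25 (SE 0.10) and was higher in both high-Sost clones without overlap, against 8.26% of all named genes. Cited2, a competitor of HIF for its coactivator, differed by -0.50 (SE 0.27) with overlap.

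Among 9 other glucose and lactate transporters, Slc2a4, which encodes the insulin-responsive carrier GLUT4, read 6.45 in clone 9L and between 3.77 and 4.10 in the other 4, at least 5.11-fold under 9L. Slc2a10 read 5.0 in 4L and between 6.32 and 6.86 in the others, and Slc2a6 read between 5.42 in 12H and 6.74 in 9L. Bsg, the chaperone of the lactate carriers, differed by -0.17 (SE 0.07). Of 9 other glycolytic isozymes and regulators, 0 were highest in 9L, against 15.7% of all named genes. Only 2 of the 9 had a mean of 6 or more. Eno3, the muscle enolase, read 7.87 and 6.76 in clones 12H and 15H and 7.48, 8.48 and 8.88 in clones 4L, 9L and 24L (difference -0.97, SE 0.61), and Bpgm, which makes 2,3-bisphosphoglycerate, read between 5.33 in 24L and 6.44 in 4L. Hk3 and Ldhc read at most 3.71.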

How the data were processed

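RNA of 5 Ocy454 clones was labelled with biotin (WT Plus kit) and hybridised, per the labels' protocols, with 1 Affymetrix array for each clone. The deposited values are log2 expression per probe set; RMA, affy 1.36.1 and R 2.15.1 are named, with no role, in the submitters' processing notes. RMA brings arrays to 1 distribution, so a shift common to most genes of 1 array is lost, and its median-based summary can repeat a value between arrays. The chip definition was not given in the sources used here, nor was a genome build.

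Of 25206 probe sets, 23185 had 1 gene and 0 several. All 23185 were matched by Entrez number to a RefSeq gene table (GRCm38.p6), and 2021 unnamed probe sets stayed out. Each gene was fitted with limma 3.58.1 in R 4.3.3 (group term, eBayes without trend, residual degrees of freedom 3, prior 0.70), two-sided, adjusted by Benjamini-Hochberg over 23185 genes at 0.05. Differences are high-Sost minus low-Sost means with the moderated SE, and folds are powers of 2 of differences. The fit was tested on simulated data.

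The members, lists and tests were chosen with earlier results of these data known, so counts over members are set beside the share of all named genes. Values in every clone are given for members without overlap, with a difference of 0.5 or more, or with the widest range of their role; from other lists, up to 3 genes by p and 2 by range were named. Alternatives were a filter on the dimmest 30% of genes, other scaling, variance models and weights, constant genes left out, chromosome shifts subtracted (chromosome medians over genes with a mean of 6 or more, centred per clone) and each clone left out. Promoters came from a RefSeq table. Plots used matplotlib 3.10.9 under Python 3.11.15.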

Additional observations from a re-analysis of the deposited data

How the results depend on the processing

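No member passed at an adjusted p under 0.05 in any setting run. Over all named genes the count of higher genes was 2 with arrays shifted to 1 median, with constant genes left out, with chromosome shifts subtracted and at an adjusted p under 0.1, and 1 in the unmoderated test, against 0, and the count of lower genes was 1 at an adjusted p under 0.1. At an unadjusted p under 0.05 the counts were 712 higher and 628 lower over all named genes, and 1 and 5 among members. Quantile normalization again gave 2 members higher without overlap (10.3% of all named genes), 1 of them 2-fold (0.889%). With chromosome shifts subtracted 10 members were lower without overlap (9.64% of all named genes), 3 of them 2-fold (0.97%). In that setting Ldhb differed by -1.03 (-0.89 before), Tpi1 by -0.62 (-0.47) and Ero1a by -0.75 (-0.58). Pfkp, Pfkm, Ndrg1 and Ankrd37 had narrower differences in it, as given above. Leaving out each clone in turn gave 1 to 5 members higher without overlap (0 to 3 of them 2-fold) and 9 to 18 lower (1 to 6 of them 2-fold), while over all named genes the same shares ran from 11.9% to 25.2% higher (0.703% to 1.5%) and 11.1% to 21% lower (0.914% to 2.04%). The extremes were 5 and 3 higher without 9L (13.6% and 1.3% of all named genes), 18 and 6 lower without 4L (11.1% and 1.13%), 9 lower without 9L (12.9%), and 1 lower and 2-fold without 12H (0.914%) or 9L (1.63%). With a clone left out, the median of the other hypoxia-induced genes ran from -0.48 to 0.088. The median over all members stayed negative, at -0.08 to -0.36 with a clone left out, and the members' median deviation in 9L stayed between 0.33 and 0.44.

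Members that changed sign with a clone left out were Slc2a3 (-0.33 to 1.23), Epas1 (-0.15 to 1.23), Slc16a3 (-1.56 to 0.40), Car9 (-1.34 to 0.088), Bnip3 (-0.83 to 0.089), Aldoa (-0.32 to 0.17), Ldha (-0.33 to 0.21), Egln1 (-0.23 to 0.28), Kdm3a (-0.21 to 0.19), Pfkfb3 (-0.19 to 0.23), Pfkfb4 (-0.081 to 0.26), Hk1 (-0.033 to 0.21), Vegfa (-0.21 to 0.048), Hif1a (-0.11 to 0.10) and Adm (-0.12 to 0.11). With chromosome shifts subtracted Egln1 was -0.15, Kdm3a -0.14, Pgk1 0.017 and Ldha 0.0069, and with array weights Egln1 was -0.031 and Pfkfb3 -0.0034. The cause was not tested. Other settings left the sign of every member measured in them, and Adm was not tested without the dimmest 30% of genes. The smallest p of an exact two-sided permutation test of 2 clones against 3 is 0.1. No paired analysis was possible because the clones share no replicate number.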

Other observations

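Of 10 genes of pyruvate entry into mitochondria, 3 were highest in clone 9L, and the median deviation of the 10 in that clone was 0.00. Pdp1, the phosphatase that switches pyruvate dehydrogenase on, was the member of that list with the smallest p. It read 6.95 and 7.11 in clones 12H and 15H, against 8.12, 7.60 and 8.29 in clones 4L, 9L and 24L (difference -0.97, SE 0.25, limma adjusted p = 0.737). Pdk4, another kinase of the complex, read between 7.13 in 24L and 8.25 in 9L. Pdha1 and Dlat, subunits of the complex, ranged over 0.35 and 0.29.

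The 6 pentose phosphate genes measured all had a positive difference, opposite to most members, with a median of 0.13 and 0 calls. Of all named genes 48.9% had a positive difference. Pgls, the lactonase of the oxidative branch, read 6.47 and 6.13 in clones 12H and 15H, against 6.04, 5.86 and 6.05 in clones 4L, 9L and 24L, higher in both high-Sost clones without overlap. Clone 9L was its lowest clone. Taldo1 differed by 0.25 (SE 0.20), Rpia by 0.08 (SE 0.05) and Rpe by 0.07 (SE 0.27).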
